A study of Mus musculus with 27 samples.

Results

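The genes described are Trem2, its adaptor Tyrobp, and 7 further genes of the disease-associated state of microglia: Cst7, Spp1, Gpnmb, Cd9, Fabp5, Lgals3 and Myof. A gene was measured when a transcript of the array carried its symbol and no other, and of several such transcripts the one with the highest mean over all arrays was taken. This gave 8 of the 9 genes, out of 21670 genes measured in the series. Spp1 was not analysed here. The genes were followed across 27 arrays of 9 sorted cell populations from C57BL/6 mice, 6 to 12 weeks old at the start, of which 6 populations came from the brain. Cells of the F4/80hi and F4/80low gates had repopulated the brains of Cx3cr1CreER/+R26DTA/+ mice, in which tamoxifen (TAM) lets a Cre under the Cx3cr1 promoter switch on diphtheria toxin A and so removes microglia. Both populations were sorted from the same brains, with 3 arrays of F4/80hi cells 12 weeks after TAM and 2 at 4 weeks, and 3 arrays of F4/80low cells at either time. DTR microglia (2 arrays) had repopulated the brains of Cx3cr1CreER/+R26DTR/+ mice, which received TAM and, 3 weeks later, diphtheria toxin (DT), and were sorted 2 weeks after DT. Naive microglia (5 arrays) came from brains without depletion. The study's legend gives their source as TAM-treated Cx3cr1CreER/+ mice, while the labels also allow for mice without any treatment and do not say so array by array. Ly6Chi monocytes from bone marrow (5 arrays), splenic red pulp macrophages (RPM, 2 arrays) and intestinal macrophages (2 arrays) were the peripheral populations. All brain cells were gated as CD11b+CX3CR1hi, the F4/80hi and F4/80low gates rest on the protein of Adgre1, and every sample was a pool of mice.

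TREM2 is a surface receptor of myeloid cells that binds lipids, lipoproteins and cell debris. It has no signalling tail of its own and pairs with TYROBP (DAP12), which recruits the kinase SYK. In mouse models of amyloid deposition and of myelin loss, microglia close to the lesion raise a shared set of genes, among them Apoe, Cst7, Axl, Clec7a and Itgax, and lower homeostatic genes such as P2ry12 and Tmem119. The full state does not form without TREM2.

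Values are log2 array signals, and array medians lay between 5.06 and 5.23, so that a gene near 5 had little room to fall. No call of signal above background was available, and a fold against a group near the array medians, such as Myof or Lgals3 in naive microglia, may understate the difference. Differences come from 1 limma fit over the 27 arrays with a batch term and can depart slightly from the difference of plain means. All 12-week and DTR arrays were of batch 1 and all 4-week, RPM and intestinal arrays of batch 2, and only naive microglia and monocytes were in both. A comparison across these sets therefore rests on the batch term, which the naive and monocyte arrays set. The values had been adjusted before deposit so that naive and monocyte arrays give the same batch difference. Any disagreement between them is therefore missing from the error, and p-values across these sets may be too small. A gene was called, and is said to have risen or fallen, where the Benjamini-Hochberg adjusted p over 32245 transcripts was under 0.05 and the change exceeded 2-fold. Of the 5 naive and the 5 monocyte arrays, 3 are biological and 2 technical replicates. The labels do not say which, so tests that use them may understate the error. In bulk RNA, fewer cells of a type and less RNA per cell cannot be told apart. The mean signal of the 6 measured microglia markers was 10.01 to 10.31 in F4/80hi cells at 12 weeks and 11.08 to 11.71 in the other brain populations, against 5.56 to 7.23 in the peripheral populations. Adgre1, the gene behind the gate, had 11.27 to 11.93 in F4/80hi cells and 10.17 to 11.10 in F4/80low cells. Neutrophil transcripts were raised in all 4-week arrays and most in 3 of them, called neutrophil-rich here: F4/80hi 4-week replicate 1 and F4/80low 4-week replicates 1 and 2. The mean of 9 neutrophil markers was 8.96 and 6.44 in F4/80hi cells at 4 weeks and 8.90, 8.85 and 6.31 in F4/80low cells at 4 weeks, against 4.94 to 5.26 in naive microglia. The 4-week results are given with and without the 3 neutrophil-rich arrays. The microglia marker mean was 11.08 and 11.16 in the F4/80hi arrays of 4 weeks. Whether these arrays held RNA of microglia was not tested, which limits each 4-week result of F4/80hi cells.

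The promoters of 4 genes are shown because their genes separated the populations in different ways: Cst7 was highest in DTR microglia, Gpnmb and Myof in F4/80hi cells among the brain populations, and Trem2 was level across the brain. Each window is RefSeq sequence of GRCm38.p6, from 250 bases before to 50 bases after the start site, written 5′ to 3′ on the strand of the gene. Capitals mark matches to TGANTCA (a looser pattern that takes in the AP-1 site TGACTCA) or TGTGGTT (the RUNX core), each searched on both strands. The windows lie at chr17:48346151-48346450 (plus strand, Trem2), chr2:150570165-150570464 (plus strand, Cst7), chr6:49036268-49036567 (plus strand, Gpnmb) and chr19:38043528-38043827 (minus strand, Myof).
Trem2: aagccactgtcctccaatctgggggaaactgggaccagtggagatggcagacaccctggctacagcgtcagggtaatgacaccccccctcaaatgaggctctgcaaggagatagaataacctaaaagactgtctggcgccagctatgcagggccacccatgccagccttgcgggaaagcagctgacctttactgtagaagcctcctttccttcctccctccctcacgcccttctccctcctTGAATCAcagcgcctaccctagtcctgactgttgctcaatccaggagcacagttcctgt
Cst7: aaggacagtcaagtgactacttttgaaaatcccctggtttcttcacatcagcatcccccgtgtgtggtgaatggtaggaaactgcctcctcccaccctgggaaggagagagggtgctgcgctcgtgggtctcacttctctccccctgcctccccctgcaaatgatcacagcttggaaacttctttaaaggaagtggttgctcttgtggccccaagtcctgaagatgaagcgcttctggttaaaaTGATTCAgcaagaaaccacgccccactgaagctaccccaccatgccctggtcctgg
Gpnmb: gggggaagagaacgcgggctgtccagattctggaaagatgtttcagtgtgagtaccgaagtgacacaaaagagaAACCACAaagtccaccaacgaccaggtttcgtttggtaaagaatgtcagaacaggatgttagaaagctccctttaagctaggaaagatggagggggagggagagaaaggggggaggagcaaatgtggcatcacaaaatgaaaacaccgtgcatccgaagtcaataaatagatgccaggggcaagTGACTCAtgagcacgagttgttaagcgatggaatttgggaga
Myof: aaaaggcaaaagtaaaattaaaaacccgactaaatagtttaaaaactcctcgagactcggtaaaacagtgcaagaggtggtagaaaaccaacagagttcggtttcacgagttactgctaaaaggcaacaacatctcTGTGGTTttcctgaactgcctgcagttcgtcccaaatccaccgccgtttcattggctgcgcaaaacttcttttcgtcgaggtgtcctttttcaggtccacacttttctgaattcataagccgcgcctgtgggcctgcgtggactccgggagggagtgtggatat
TGANTCA stood from -9 to -3 of the start site in Trem2 (as TGAATCA), from -6 to 1 in Cst7 (TGATTCA) and from 9 to 15 in Gpnmb (TGACTCA). Of these, the Gpnmb match alone is the AP-1 site. In any form, 7.81% of 32851 RefSeq windows held TGANTCA, and the AP-1 form was not counted apart. TGTGGTT stood from -176 to -170 in Gpnmb, as AACCACA, from -114 to -108 in Myof and from -129 to -123 in Spp1, whose window is not shown, and 5.27% of windows held it. CACGTG, the E-box bound by the MiT/TFE factors that act on Gpnmb, was in 7.15% of windows and in none of the 7 genes with a window, and GAGGAAGT, a PU.1 type of site, was in 3.2% of windows and, of the 7 genes, in Spp1 alone. Tyrobp and Fabp5 had no entry. A match describes the letters of a window only.

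**Figure D1:**
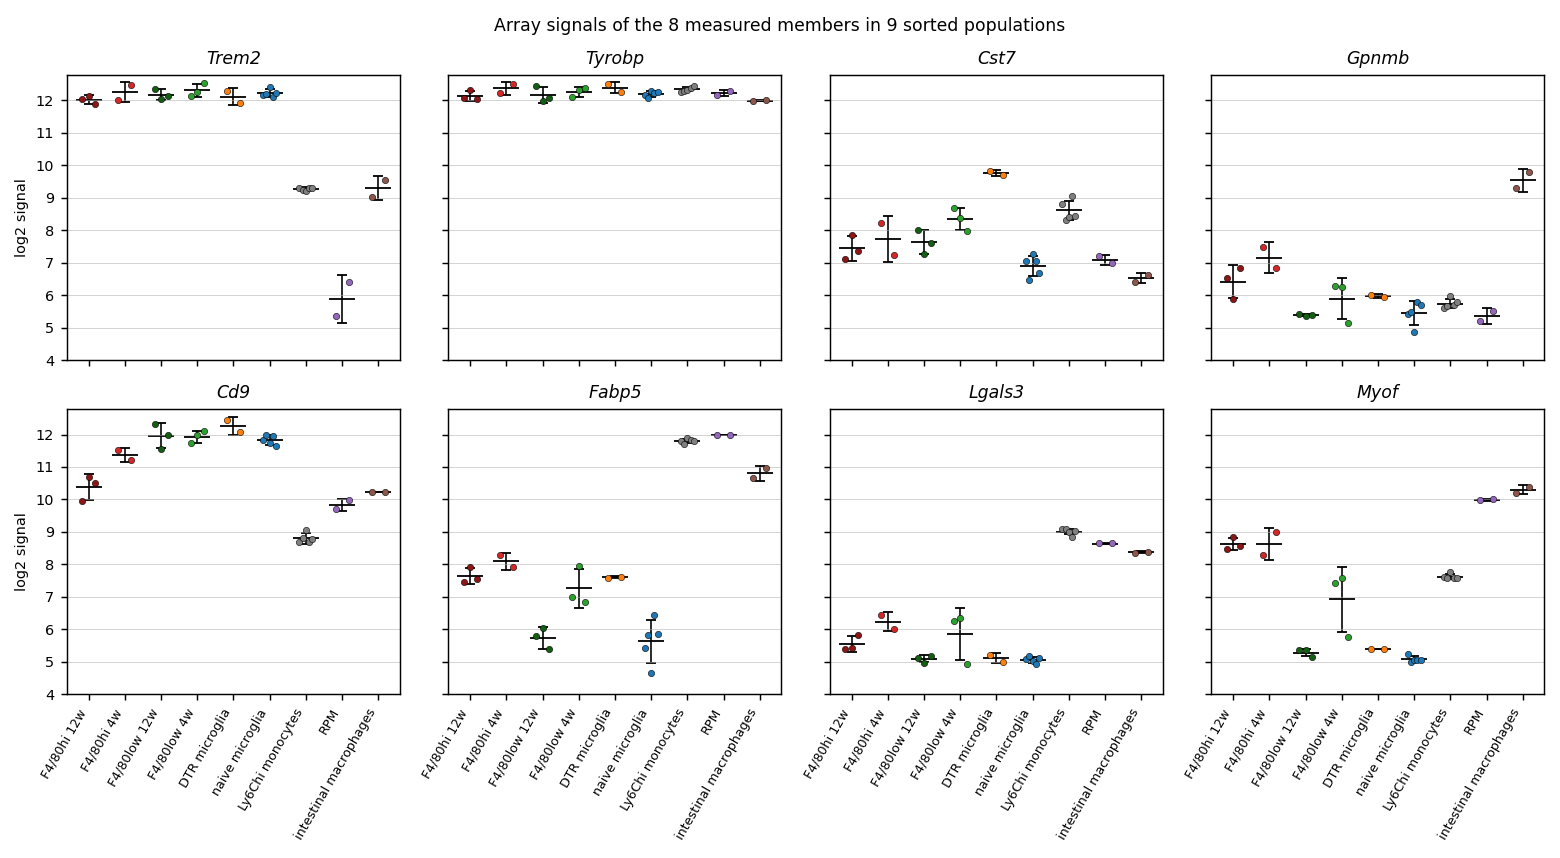
Log2 array signal (y axis) of the 8 measured genes in the 9 populations (x axis), 1 panel per gene. Points are arrays and the lines give the mean and SD. Trem2 stood between 11.89 and 12.53 on every brain array, and Myof was above 8 in F4/80hi cells, RPM and intestinal macrophages only.

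The receptor and its adaptor were called in none of the comparisons made between brain populations. Trem2 had signals of 12.04, 12.15 and 11.89 in F4/80hi cells at 12 weeks and 12.02 and 12.47 at 4 weeks. F4/80low cells had 12.37, 12.04 and 12.13 at 12 weeks and 12.13, 12.27 and 12.53 at 4 weeks, and DTR microglia had 12.31 and 11.93. Naive microglia had 12.17, 12.21, 12.41, 12.10 and 12.24, and the arrays of each repopulated group overlapped those of naive microglia. The difference of Trem2 from naive microglia was -0.16 ± 0.20 in F4/80hi cells at 12 weeks (SE, 95% interval -0.58 to 0.26, limma adjusted p = 0.800) and -0.01 at 4 weeks (interval -0.45 to 0.44). It was -0.01 (interval -0.43 to 0.41) in F4/80low cells at 12 weeks, 0.06 (interval -0.34 to 0.46) at 4 weeks and -0.07 (interval -0.54 to 0.40) in DTR microglia.

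Trem2 set the brain apart from the periphery. Monocytes had 9.30, 9.24, 9.21, 9.31 and 9.32, RPM 5.35 and 6.41, and intestinal macrophages 9.02 and 9.55, all below every brain array. F4/80hi cells exceeded monocytes 6.86-fold at 12 weeks (log2 2.78 ± 0.19 SE, limma adjusted p = 2.13e-11) and 7.63-fold at 4 weeks, and naive microglia exceeded monocytes 7.67-fold. The difference from RPM was 74.2-fold for F4/80hi cells at 12 weeks and 82.9-fold for naive microglia, where it ranked 4 and 10 from the top of all 32245 transcripts. Monocytes and intestinal macrophages overlapped in Trem2, and RPM was lowest.

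Tyrobp was high everywhere. Its signals ran from 11.98 in an intestinal array to 12.52 in a DTR array, and in the order of group means each group overlapped the next, except that intestinal macrophages (11.98 and 12.00) lay just below F4/80hi cells at 12 weeks (12.08, 12.32 and 12.03). Tyrobp was called in 0 of the 17 comparisons between groups, and its unadjusted limma p was above 0.05 in each. The widest departure from naive microglia (12.18, 12.07, 12.28, 12.22 and 12.27) was that of DTR microglia (12.52 and 12.27), at 0.27 with an interval of -0.05 to 0.58. RPM, in which Trem2 was lowest, had 12.17 and 12.31.

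Myof, a ferlin that acts in membrane fusion and repair, showed the widest gap between F4/80hi cells and microglia. F4/80hi cells had 8.48, 8.83 and 8.56 at 12 weeks and 8.28 and 8.98 at 4 weeks. F4/80low cells had 5.35, 5.34 and 5.15 at 12 weeks and 7.42, 7.59 and 5.76 at 4 weeks. DTR microglia had 5.40 and 5.40, against 5.24, 5.0, 5.04, 5.04 and 5.04 in naive microglia. All F4/80hi arrays lay above all F4/80low, DTR and naive arrays, and F4/80low 4-week replicate 3, the array of its group that was not neutrophil-rich, was the lowest of the 3. Against naive microglia, whose arrays lay at the array medians, Myof rose by a fitted 11.4-fold in F4/80hi cells at 12 weeks (log2 3.51 ± 0.29 SE, interval 2.92 to 4.10, limma adjusted p = 6.61e-09) and 12.0-fold at 4 weeks (3.59, adjusted p = 3.02e-08). Monocytes had 7.57 to 7.76 with a median of 7.59, RPM 9.97 and 10.01, and intestinal macrophages 10.21 and 10.39, so that F4/80hi cells stood between monocytes and the tissue macrophages. The study lists Myof among the genes that mark F4/80hi cells, chosen on these arrays, and its direction there is not independent evidence.

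Fabp5, a fatty acid carrier of the cytosol, rose over naive microglia in 4 of the 5 repopulated groups by its brightest transcript. The call in F4/80low cells at 4 weeks was lost without the neutrophil-rich arrays (1.19, adjusted p = 0.245). F4/80hi cells had 7.45, 7.93 and 7.54 at 12 weeks and 8.28 and 7.91 at 4 weeks. F4/80low cells had 5.79, 6.02 and 5.38 at 12 weeks and 6.99, 7.95 and 6.83 at 4 weeks, and DTR microglia had 7.59 and 7.62. Naive microglia had 5.43, 5.81, 4.64, 6.43 and 5.85, below every array of the other groups save those of F4/80low cells at 12 weeks, which overlapped them. Fabp5 rose 4.06-fold in F4/80hi cells at 12 weeks (log2 2.02 ± 0.31 SE, limma adjusted p = 7.48e-05), 5.48-fold at 4 weeks (adjusted p = 2.01e-05) and 3.96-fold in DTR microglia (log2 1.99 ± 0.35 SE, adjusted p = 0.00209). The periphery was far higher, at 11.71 to 11.88 in monocytes, 11.99 and 12.00 in RPM and 10.65 and 10.97 in intestinal macrophages. The array holds 3 further Fabp5 transcripts with values identical to one another on every array, which may share probes with near-identical copies of the gene. They gave smaller differences, of 0.86 in F4/80hi cells at 12 weeks (adjusted p = 0.00119) and 0.87 at 4 weeks (adjusted p = 0.00274) and 0.50 in F4/80low cells at 4 weeks (adjusted p = 0.133), none of them called, and 1.01 in DTR microglia (adjusted p = 0.00380), which was called, so the size of the Fabp5 change is uncertain.

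Cst7, which encodes the cysteine protease inhibitor cystatin F, was highest in DTR microglia. DTR microglia had 9.84 and 9.70, above every array of the series. F4/80hi cells had 7.11, 7.87 and 7.35 at 12 weeks and 8.23 and 7.23 at 4 weeks, and F4/80low cells had 8.01, 7.28 and 7.60 at 12 weeks and 8.69, 8.39 and 7.98 at 4 weeks. Naive microglia had 7.06, 6.47, 7.25, 7.05 and 6.68, which F4/80hi arrays overlapped and the other repopulated groups did not. Cst7 rose 8.02-fold in DTR microglia (log2 3.00 ± 0.29 SE, interval 2.40 to 3.61, limma adjusted p = 1.71e-06), rank 16 from the top of all transcripts, and this call was kept when any single array was left out. F4/80hi cells at 12 weeks were 2.1-fold lower than monocytes (8.79, 8.33, 8.42, 9.04 and 8.45; adjusted p = 0.00128). Without monocyte replicate 1 the difference was -0.97 and without F4/80hi 12-week replicate 1 it was -0.90, both short of 2-fold. In F4/80hi cells at 4 weeks the difference from naive microglia was 0.74 (adjusted p = 0.192), and 1.24 (adjusted p = 0.0367) without replicate 2. RPM (7.20 and 6.99) and intestinal macrophages (6.41 and 6.62) overlapped naive microglia.

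Cd9, a tetraspanin, was the only one of the 8 genes called lower in a repopulated brain population than in naive microglia. F4/80hi cells had 9.95, 10.70 and 10.49 at 12 weeks and 11.52 and 11.20 at 4 weeks, against 11.83, 11.98, 11.75, 11.95 and 11.64 in naive microglia. F4/80low cells (12.32, 11.56 and 11.99 at 12 weeks, 11.73, 11.98 and 12.10 at 4 weeks) overlapped naive microglia, and DTR microglia had 12.46 and 12.06. Cd9 fell in F4/80hi cells at 12 weeks by 1.52 ± 0.20 on the log2 scale (SE, 2.87-fold, limma adjusted p = 6.75e-06). At 4 weeks the difference was -0.42 (interval -0.85 to 0.01, adjusted p = 0.405). Monocytes had the lowest level of the series (8.68, 8.80, 9.07, 8.68 and 8.77), and RPM (9.69 and 9.97) and intestinal macrophages (10.24 and 10.22) lay between them and microglia. A second, dim Cd9 transcript showed no such fall, at -0.19 in F4/80hi cells at 12 weeks (adjusted p = 0.776).

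Gpnmb, a lysosomal and surface glycoprotein of lipid-laden macrophages, leaned to F4/80hi cells. F4/80hi cells had 6.54, 5.88 and 6.85 at 12 weeks and 7.49 and 6.83 at 4 weeks. F4/80low cells had 5.42, 5.36 and 5.37 at 12 weeks and 6.27, 6.24 and 5.14 at 4 weeks, and DTR microglia had 6.01 and 5.93, against 5.42, 5.47, 4.86, 5.80 and 5.69 in naive microglia. All F4/80hi arrays lay above all naive arrays, and F4/80low arrays overlapped them at both times. Gpnmb rose 3.28-fold over naive microglia at 4 weeks (log2 1.72 ± 0.30 SE, limma adjusted p = 0.000464). At 12 weeks the difference was 0.98 ± 0.28 SE (adjusted p = 0.0347), just under the 2-fold line, and it passed that line without F4/80hi replicate 2 (1.25), naive replicate 4 (1.03), naive replicate 5 (1.01) or monocyte replicate 3 (1.01). Intestinal macrophages had 9.29 and 9.80, above every other array, whereas monocytes (5.59, 5.66, 5.97, 5.70 and 5.78) and RPM (5.19 and 5.53) overlapped naive microglia.

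Lgals3 encodes galectin-3, a secreted lectin that can bind TREM2. F4/80hi cells had 5.38, 5.41 and 5.83 at 12 weeks and 6.44 and 6.01 at 4 weeks, and F4/80low cells had 5.11, 4.97 and 5.19 at 12 weeks and 6.27, 6.33 and 4.94 at 4 weeks. DTR microglia had 5.22 and 5.0, against 5.07, 5.18, 5.02, 4.93 and 5.12 in naive microglia. Each F4/80hi array was above each naive array, and the group of F4/80low cells at 4 weeks was split, with replicate 3 at the naive level. Lgals3 rose 2.30-fold in F4/80hi cells at 4 weeks (log2 1.2 ± 0.25 SE, limma adjusted p = 0.00319), but it had 0.99 (adjusted p = 0.0904) without F4/80hi replicate 1, a neutrophil-rich array. At 12 weeks it was 0.42 (adjusted p = 0.416). Monocytes had 9.07, 9.08, 8.99, 8.85 and 9.04, RPM 8.64 and 8.65 and intestinal macrophages 8.34 and 8.39, so that all brain arrays lay far below the periphery.

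Set against naive microglia, 3 of the 8 genes were called in the F4/80hi cells of 12 weeks (Myof and Fabp5 higher, Cd9 lower), against 2.99% of all transcripts. At 4 weeks 4 were called (Myof, Fabp5, Gpnmb and Lgals3, all higher), against 2.55%. The F4/80low cells gave 3 calls at 4 weeks, all higher and against 1.00% of transcripts, and 0 at 12 weeks, against 0.115%. In that 12-week comparison 1 gene had an unadjusted limma p under 0.05, Cst7, at 0.86 (adjusted p = 0.373). The calls in F4/80low cells at 4 weeks were Myof (3.69-fold, adjusted p = 0.000138), Fabp5 (3.07-fold, adjusted p = 0.00197) and Cst7 (2.57-fold, adjusted p = 0.00205), and without replicate 3 Lgals3 was called too (1.28, against 0.82 with all arrays). DTR microglia had 2 calls, Cst7 and Fabp5, against 0.754% of transcripts.

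**Figure D2:**
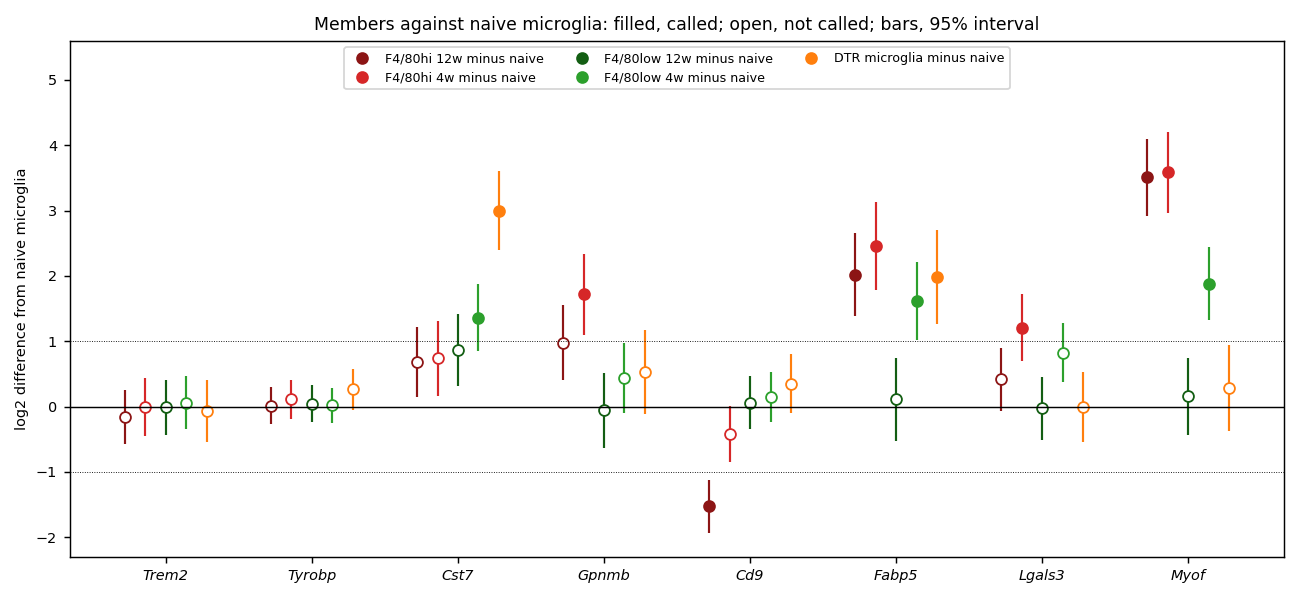
Log2 difference from naive microglia (y axis, log2 units) of the 8 genes (x axis) in 5 repopulated brain populations (colours). Bars are 95% intervals of the limma fit, filled points are called and dotted lines mark a 2-fold change. Myof was called in both F4/80hi groups, Cst7 had its highest value, 3.00, in DTR microglia, and Trem2 and Tyrobp were called in no group.

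The median difference of the 8 genes from naive microglia was 0.55 in F4/80hi cells at 12 weeks and 0.97 at 4 weeks, 0.04 in F4/80low cells at 12 weeks and 0.63 at 4 weeks, and 0.32 in DTR microglia. The median of all transcripts was between -0.04 and 0.01 in these comparisons. The arrays of the 2 groups did not overlap for 5 of the 8 genes in F4/80hi cells at 12 weeks (16.1% of all transcripts) and for 5 at 4 weeks (17.0%). They did not overlap for 1 gene in F4/80low cells at 12 weeks (7.18%), for 3 at 4 weeks (7.51%) and for 5 in DTR microglia (14.9%). These comparisons share the naive arrays.

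The 2 populations of the same brains were then compared with each other. At 12 weeks 4 of the 8 genes differed, against 2.51% of transcripts: Myof was 10.2-fold higher in F4/80hi cells than in F4/80low cells (log2 3.35 ± 0.28 SE, limma adjusted p = 1.81e-08), Fabp5 3.76-fold higher (adjusted p = 0.000153), Gpnmb 2.06-fold higher (adjusted p = 0.0241) and Cd9 2.98-fold lower (adjusted p = 4.24e-06). The Gpnmb call was lost without any 1 of F4/80hi replicates 1 (0.98) and 3 (0.82) or F4/80low replicates 1 (adjusted p = 0.0644), 2 (adjusted p = 0.0744) and 3 (adjusted p = 0.0704). Trem2 (-0.15), Tyrobp (-0.03) and Cst7 (-0.18) had small differences with overlapping arrays. At 4 weeks Myof alone was called, 3.26-fold higher in F4/80hi cells (log2 1.71 ± 0.32 SE, adjusted p = 0.0100), against 0.440% of transcripts, a call that did not survive without F4/80hi replicate 2 (1.35, adjusted p = 0.367). Gpnmb had 1.28 (adjusted p = 0.0664) and passed without naive replicate 3 (adjusted p = 0.0405), F4/80hi 12-week replicate 2 (adjusted p = 0.0448) or F4/80low 4-week replicate 1 (1.47, adjusted p = 0.0284).

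**Figure D3:**
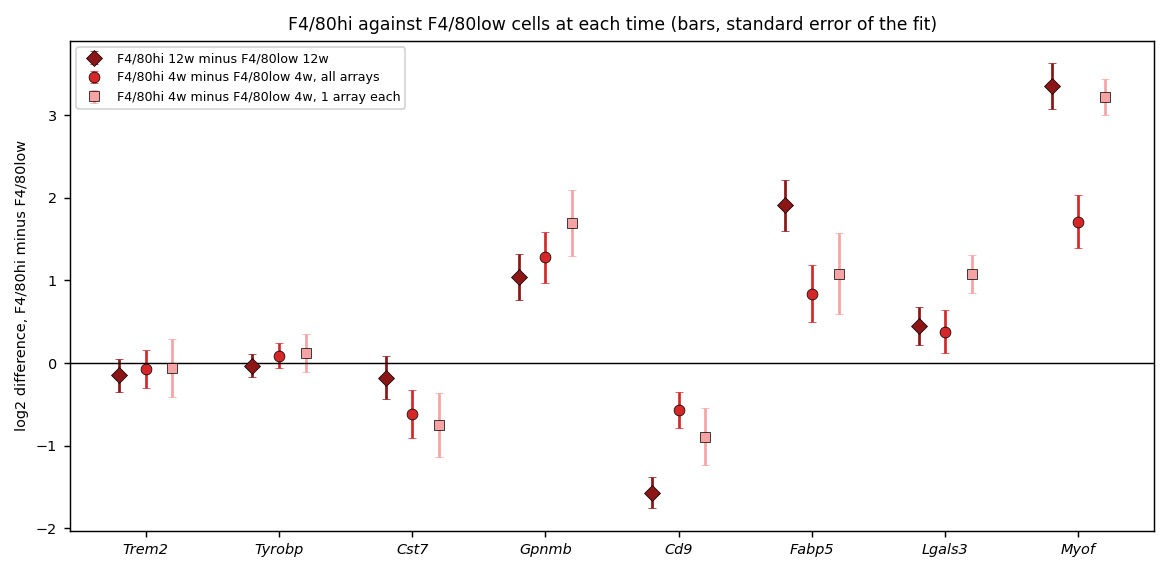
Log2 difference of F4/80hi minus F4/80low cells (y axis, log2 units) of the 8 genes (x axis). Values are given at 12 weeks, at 4 weeks with all arrays, and at 4 weeks without the 3 neutrophil-rich arrays, which leaves 1 array per group. Bars are the SE of the limma fit. Myof was 3.35 at 12 weeks, 1.71 at 4 weeks and 3.22 with the 1 array per group.

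For the 8 genes, the difference between the populations was not shown to change with time. In the same test 3 homeostatic genes were called, as given below. In the test of the change of the F4/80hi to F4/80low difference between 12 and 4 weeks, 0 of the 8 genes were called by limma (3 at an unadjusted p under 0.05, 0.118% of transcripts called), with 1.64 for Myof (adjusted p = 0.203), 1.07 for Fabp5 (adjusted p = 0.665) and -1.0 for Cd9 (adjusted p = 0.327). Without F4/80low 4-week replicate 3 the value for Myof was 2.22 (adjusted p = 1.32e-05). Without the 3 neutrophil-rich arrays it was 0.13 (adjusted p = 0.964).

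Time and batch coincide in the repopulated groups, so the comparisons of times rest on the batch term. Between 12 and 4 weeks the F4/80hi populations gave 0 calls by limma (2 at an unadjusted p under 0.05, 0.171% of transcripts called), with -1.10 for Cd9 (adjusted p = 0.104) and -0.79 for Lgals3 (adjusted p = 0.442). In F4/80low cells Myof was 3.30-fold lower at 12 than at 4 weeks (log2 -1.72 ± 0.36 SE, adjusted p = 0.0436), against 0.183% of transcripts called, and this call was lost when any 1 array was left out, with values between -1.39 and -1.77, except F4/80low 4-week replicate 3, F4/80hi 12-week replicate 2 and either F4/80hi 4-week array. Fabp5 there had -1.51 (adjusted p = 0.123) and Lgals3 -0.86 (adjusted p = 0.297), and both were called without F4/80low 4-week replicate 3, at -1.72 (adjusted p = 0.0484) and -1.31 (adjusted p = 0.000375). F4/80low cells at 4 weeks and DTR microglia gave 0 calls (3 at an unadjusted p under 0.05, 0.183% of transcripts called), with Cst7 3.13-fold lower in F4/80low cells (-1.64, adjusted p = 0.0531). The adjusted p of Cst7 was under 0.05 without F4/80low 4-week replicate 1 (-1.81, adjusted p = 0.0445), either F4/80hi 4-week array (adjusted p = 0.0252), naive replicate 5 (adjusted p = 0.0450), F4/80hi 12-week replicate 2 (adjusted p = 0.0475) or F4/80low 12-week replicate 1 (adjusted p = 0.0497). Without F4/80low 4-week replicate 3, Lgals3 (1.29) and Myof (2.18) were called.

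The 4-week values of several genes moved with transcripts used here as markers of other cells. S100a8, a neutrophil gene, had 10.33 and 7.44 in the F4/80hi arrays and 10.22, 10.44 and 7.22 in the F4/80low arrays, against 3.79 to 5.26 in naive microglia. Ly6c2, a monocyte gene, had 9.01 and 5.72 in F4/80hi cells and 8.69, 9.20 and 5.96 in F4/80low cells. Ms4a7, listed here with border-associated macrophages, is also a gene the study names as raised in F4/80hi cells. It had 11.39 and 12.02 in F4/80hi cells and 10.82, 10.73 and 7.90 in F4/80low cells, so that the F4/80low arrays with the highest S100a8 also had the highest Ms4a7. RPM and intestinal macrophages had 10.84 to 11.66. Of the same list, Mrc1, Pf4, Cbr2 and F13a1 were also lower in F4/80low replicate 3. Stab1 (11.44, 11.53 and 11.26) did not exceed naive microglia (11.33 to 11.77), and Cd163 and Lyve1 were near the array medians. Over 6 measured monocyte markers (7 listed) the mean was 7.60 and 5.74 in F4/80hi cells and 7.22, 7.78 and 6.04 in F4/80low cells. Over 8 border-associated macrophage markers it was 8.24 and 8.72 in F4/80hi cells and 7.79, 7.83 and 6.65 in F4/80low cells, and at 12 weeks 8.39 to 8.84 in F4/80hi cells and 6.17 to 6.21 in F4/80low cells, against 5.83 to 6.37 in naive microglia. No marker of these lists was at 0. The part of these cells in the differences was not tested.

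**Figure D4:**
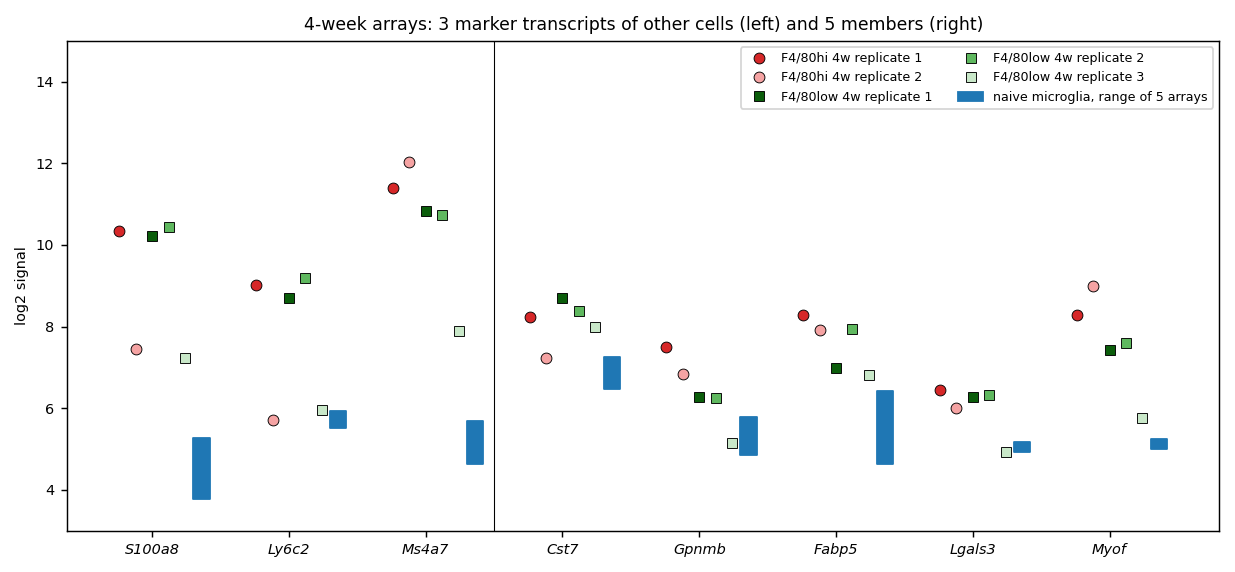
Log2 signal (y axis) of S100a8, Ly6c2 and Ms4a7 and of Cst7, Gpnmb, Fabp5, Lgals3 and Myof (x axis) in the 5 arrays taken at 4 weeks (coloured symbols). The blue bar is the range of naive microglia. F4/80low replicate 3, with S100a8 at 7.22, had the lowest Gpnmb (5.14), Lgals3 (4.94) and Myof (5.76) of the 5 arrays.

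With the 3 arrays left out, 1 array remained in either 4-week group, and it was taken to vary like the other groups. F4/80hi cells then had 3 genes called against naive microglia, of 3.43% of transcripts: Myof (3.94, adjusted p = 7.42e-12), Fabp5 (2.27, adjusted p = 0.000678) and Gpnmb (1.39, adjusted p = 0.0102), while Lgals3 had 0.99 (adjusted p = 0.00151). F4/80low cells had 0 called by limma, of 0.506% of transcripts, with Myof at 0.72 (adjusted p = 0.0623), Fabp5 at 1.19 (adjusted p = 0.245) and Cst7 at 0.99 (adjusted p = 0.220). F4/80hi over F4/80low cells had 3 called, of 1.46% of transcripts: Myof (3.22, adjusted p = 3.07e-08), Gpnmb (1.69, adjusted p = 0.0315) and Lgals3 (1.08, adjusted p = 0.0152). The call of Myof between F4/80low cells at 12 and 4 weeks was gone (-0.56, adjusted p = 0.348), and Cst7 was lower in F4/80low cells at 4 weeks than in DTR microglia (-2.01, adjusted p = 0.0271).

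F4/80hi cells differed from monocytes in most of the 8 genes. The monocyte arrays, of bone marrow, had a neutrophil marker mean of 9.53 to 10.18, above that of the neutrophil-rich brain arrays. The markers did not move together. Elane (11.72 to 12.13 in monocytes, 4.78 to 5.43 in those brain arrays), Mpo and Mmp8 were higher in monocytes. Retnlg (4.65 to 7.13 in monocytes, 8.87 to 9.25 in those brain arrays), S100a9, Ngp and Ltf were lower, and S100a8 and Camp overlapped. The part of these transcripts in the differences from monocytes was not tested. At 12 weeks 5 genes were called, against 14.2% of transcripts: Trem2 and Cd9 (2.89-fold, limma adjusted p = 2.96e-07) were higher in F4/80hi cells, and Fabp5 (17.8-fold), Lgals3 (11.4-fold) and Cst7 (2.1-fold) were lower. Myof, at 0.97 (adjusted p = 0.00624), passed the 2-fold line without monocyte replicate 3 or F4/80hi replicate 1 or 3. At 4 weeks 7 genes were called, against 12.5%, and 7 again without the neutrophil-rich arrays: Trem2 (2.93), Cd9 (2.64), Gpnmb (1.42) and Myof (1.06) were higher, and Fabp5 (-3.72), Lgals3 (-2.72) and Cst7 (-1.02) lower. Of these, Gpnmb was not called without F4/80hi replicate 1 (1.09, adjusted p = 0.0532), Myof without replicate 2 (0.70, adjusted p = 0.255) and Cst7 without replicate 2 (-0.52, adjusted p = 0.350), and Cst7 also without monocyte replicate 1 or 4 or naive replicate 2 or 3. Naive microglia differed from monocytes in 6 genes, against 14.6%: Cd9 (8.32-fold) and Trem2 were higher, and Fabp5 (72.4-fold), Lgals3 (15.2-fold), Myof (5.79-fold) and Cst7 (3.37-fold) lower. Against monocytes the further Fabp5 transcripts gave smaller log2 differences, of -2.71 in F4/80hi cells at 12 weeks, -2.70 at 4 weeks and -3.57 in naive microglia, all called. The dim Cd9 transcript gave 0.53, 0.64 and 0.72 in the same order, none called.

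Against the tissue macrophages, F4/80hi cells at 12 weeks differed from RPM in 5 genes (16.0% of transcripts called) and from intestinal macrophages in 6 (11.4%). Trem2 was 6.99-fold higher in F4/80hi cells than in intestinal macrophages, whereas Gpnmb (8.69-fold), Fabp5 (8.84-fold), Lgals3 (7.61-fold) and Myof (3.37-fold) were lower and Cst7 was 2.23-fold higher (adjusted p = 0.0236). Against RPM, Fabp5 (20.2-fold), Lgals3 (9.22-fold) and Myof (2.72-fold) were lower in F4/80hi cells, and Gpnmb was 2.09-fold higher (adjusted p = 0.0416). The Gpnmb call was lost without F4/80hi 12-week replicate 1 or 3, either RPM array, monocyte replicate 1, 2, 4 or 5, or naive replicate 1, 2, 4 or 5, with values of 0.85 to 1.23. The Cst7 call against intestinal macrophages was lost without F4/80hi 12-week replicate 2, either intestinal array, monocyte replicate 4 or naive replicate 2, with values of 0.95 to 1.27. Naive microglia differed from RPM in 5 genes (15.8%) and from intestinal macrophages in 6 (13%). Among these were Fabp5 against RPM (82.0-fold lower), Myof against intestinal macrophages (38.3-fold lower) and against RPM (30.9-fold lower), both with naive arrays at the array medians, and Gpnmb against intestinal macrophages (17.1-fold lower). The further Fabp5 transcripts gave smaller log2 differences from RPM, of -4.01 in naive microglia and -3.15 in F4/80hi cells at 12 weeks. For F4/80hi cells at 12 weeks against intestinal macrophages they gave -1.81, and all of these were called. The intestinal arrays also carried B cell transcripts, with a marker mean of 9.74 to 10.07, against 5.25 to 5.61 in naive microglia, whose part in these gaps was not tested.

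Of the other disease-associated genes, 39 of 43 listed were measured. Against naive microglia, 9 rose and 3 fell in F4/80hi cells at 12 weeks, 12 rose at 4 weeks, 2 rose in F4/80low cells at 12 weeks and 9 at 4 weeks, and 9 rose in DTR microglia. The shares of all transcripts called in these comparisons were, in the same order, 2.99%, 2.55%, 0.115%, 1.00% and 0.754%. The median of the list was 0.08 in F4/80hi cells at 12 weeks and 0.23 at 4 weeks. It was 0.09 in F4/80low cells at 12 weeks, 0.25 at 4 weeks and 0.45 in DTR microglia, against -0.04 to 0.01 for all transcripts. In F4/80hi cells at 12 weeks Apoe, the lipid carrier that TREM2 binds (3.83), Axl, a receptor for dying cells (3.79), Lilrb4a, an inhibitory receptor (3.78), and Cybb, the oxidase subunit (3.28), led. At 4 weeks Cybb (4.50), Apoe (3.61), Axl (3.48) and Ch25h, which makes an oxysterol (3.43), led in F4/80hi cells, and Ch25h (2.77), Axl (2.61), Cybb (2.36) and Lilrb4a (2.21) in F4/80low cells. In DTR microglia Axl (3.30), the integrin gene Itgax (3.16), Ch25h (3.06) and the lectin gene Clec7a (2.78) led. In F4/80low cells at 12 weeks the 2 genes were Axl (1.60, limma adjusted p = 0.00125) and Clec7a (1.18, adjusted p = 0.0233).

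**Figure D5:**
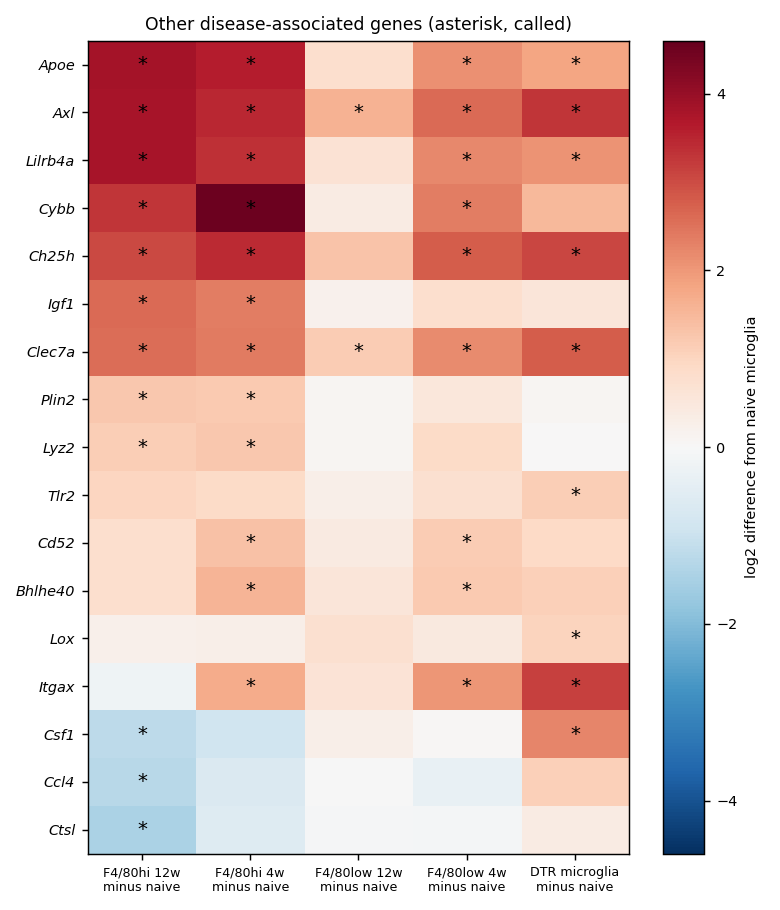
Heat map of the log2 difference from naive microglia (colour scale) for the 17 of 39 other disease-associated genes called in at least 1 of the 5 brain populations (columns). An asterisk marks a call. Apoe was 3.83 in F4/80hi cells at 12 weeks and Itgax 3.16 in DTR microglia.

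Itgax had -0.18 (adjusted p = 0.854) in F4/80hi cells at 12 weeks, and the 3 genes that fell there, named after their values were seen, were Csf1, a growth factor of microglia (-1.2, adjusted p = 0.00481), the cathepsin gene Ctsl (-1.46) and the chemokine gene Ccl4 (-1.27). Csf1 rose in DTR microglia (2.25, adjusted p = 6.97e-05) and was lower in F4/80low cells at 4 weeks than in DTR microglia (-2.21, adjusted p = 0.00974). With the 3 neutrophil-rich arrays left out, 12 genes of the list rose in F4/80hi cells at 4 weeks, 11 of them also called with all arrays, and 7 rose in F4/80low cells, all called with all arrays. Those 7 were Axl (2.11), Ch25h (2.12), Clec7a (1.96), Itgax (1.78), Cybb (1.19), Apoe (1.11) and Cd52 (1.03).

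Of 20 homeostatic genes that fall in disease-associated microglia, 17 were measured. In F4/80hi cells at 12 weeks 6 fell and none rose, beside 2.99% of all transcripts called, with a list median of -0.80 against 0 for all transcripts. The log2 differences were -4.59 for Sall1, a transcription factor of microglia, -2.78 for the matrix protein gene Sparc, -2.01 for the selectin ligand gene Selplg and -1.21 for Tmem119. At 4 weeks 1 fell, Sall1 (-1.22, adjusted p = 0.0105), beside 2.55% of all transcripts called. Sall1 had 10.59 and 9.94 in the F4/80hi arrays of 4 weeks and 6.36 to 7.29 in those of 12 weeks. Naive microglia had 11.17 to 11.60. The F4/80hi means at 4 and 12 weeks were 9.83 and 7.52 for Sparc and 12.43 and 10.46 for Selplg. Fcrls (11.63 and 11.81) and Tgfbr1 (11.22 and 11.27) were not lower at 12 weeks. The study describes macrophages derived from monocytes as not expressing Sall1. In F4/80low cells 0 were called at either time by limma, with 2 at an unadjusted p under 0.05 at 12 weeks and 1 at 4 weeks, and DTR microglia had 0 called and 3 at an unadjusted p under 0.05. The shares of all transcripts called were 0.115% in F4/80low cells at 12 weeks, 1.00% at 4 weeks and 0.754% in DTR microglia. Between the times, 3 of the 17 were called lower in F4/80hi cells at 12 than at 4 weeks, beside 0.171% of all transcripts. That comparison rests on the batch term. In the test of the change of the F4/80hi to F4/80low difference, 3 of the 17 were called lower, beside 0.118%.

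Of 26 measured genes of TREM2 signalling (28 listed), Lilrb4a and Vav3, an exchange factor downstream of SYK, rose in F4/80hi cells at 12 weeks (3.78 and 1.18), beside 2.99% of all transcripts called there. Lilrb4a alone rose at 4 weeks in F4/80hi (3.36) and F4/80low cells (2.21) and, after DT, in DTR microglia (2.06), and none was called in F4/80low cells at 12 weeks (1 at an unadjusted p under 0.05). At an unadjusted p under 0.05 there were 15 of the 26 in F4/80hi cells at 12 weeks and 8 at 4 weeks. DTR microglia had 5, and F4/80low cells of 4 weeks 3. The list median was -0.23 in F4/80hi cells at 12 weeks. Without the neutrophil-rich arrays 4 of these genes rose in F4/80hi cells at 4 weeks (Vav3, Dok1, Siglece and Lilrb4a), and in F4/80low cells Lilrb4a had 0.51 (adjusted p = 0.661). Of 11 ligands and sheddases only Apoe was called, in all these groups but F4/80low cells at 12 weeks, where 0 were called and 1 had an unadjusted p under 0.05. Of the 5 measured neighbours of Trem2 in its gene cluster (7 listed), Treml2 rose in DTR microglia (1.66, adjusted p = 1.09e-05). Trem1 rose at 4 weeks in F4/80hi (1.72, adjusted p = 0.0196) and F4/80low cells (1.72, adjusted p = 0.0153) and Treml4 in F4/80low cells (1.60, adjusted p = 0.00275), and without the neutrophil-rich arrays none of these 4-week values was called, with 0.61 in F4/80hi and 0.50 in F4/80low cells for Trem1 and 0.48 for Treml4.

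Among 39 measured relatives of the 8 genes (42 listed), Lgals1, which encodes galectin-1, rose in F4/80hi cells at 12 weeks (3.06) and 4 weeks (3.16) and in F4/80low cells at 4 weeks (2.05), the last at 1.15 (adjusted p = 0.181) without the neutrophil-rich arrays. Of a list of 15 genes, made of receptors of osteopontin and galectins with the galectin-binding protein gene Lgals3bp and the CD9 partners Ptgfrn and Igsf8, 3 rose and 2 fell in F4/80hi cells at 12 weeks and 4 rose and 2 fell at 4 weeks. The integrin gene Itga4 rose at 12 weeks (4.81) and 4 weeks (4.66), and Itgb3 (-3.44 and -1.59) and Ptgfrn (-2.32 and -1.74) fell. Of 24 measured transcription factors known to act on these genes (27 listed), Tfec, a MiT/TFE factor, rose in F4/80hi cells at 12 weeks (2.78) and 4 weeks (1.42), as did Runx3 (1.71 and 1.55), and none was called in DTR microglia (6 at an unadjusted p under 0.05). For these lists, the shares of all transcripts called were 2.99% in F4/80hi cells at 12 weeks, 2.55% at 4 weeks and 0.754% in DTR microglia.

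Likeness was measured as Pearson's r over the 9 group means, which share arrays and scale. The genes most like Trem2 were Dmtf1 (0.993), Mapk8ip3 (0.992) and Zbed3 (0.991), and those most like Myof were 1700071M16Rik (0.993), Pla2g7 (0.993) and Arhgef3 (0.986). Gpnmb was nearest to Mmp12 (0.970), Arhgap6 (0.970) and Pgc (0.969), and Cst7 to Lonrf1 (0.940), Magea1 (0.899) and Efcab12 (0.893). Over the 27 arrays the r of Pgc with Gpnmb was 0.532, and with Cst7 it was 0.53 for Lonrf1, 0.309 for Magea1 and 0.382 for Efcab12. Lgals3 was nearest to Lsm4 (0.996), Crip1 (0.996) and Aida (0.995), Fabp5 to Gm10335 (0.992), Rplp1 (0.990) and Sirpb1a (0.988), and Cd9 to Smurf1 (0.987), Sgk1 (0.987) and Zfhx3 (0.986). Tyrobp, with little spread to follow, was nearest to Olfr597 (0.933), Dennd4c (0.910) and Gm13080 (0.909), which over the 27 arrays had 0.19, 0.569 and 0.158. For every other gene named here the r over the 27 arrays was between 0.889 and 0.988. Over the 18 brain arrays, Gpnmb went with Fabp5 (r 0.81), Lgals3 (0.80) and Myof (0.79), and Cd9 went against Myof (-0.74). Over all 27 arrays Trem2 went against Fabp5 (-0.86) and with Cd9 (0.74).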

How the data were processed

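RNA of sorted cell pools was hybridised by the authors after WT Pico amplification to Affymetrix arrays of the Mouse Gene 2.1 ST type, read on a GeneTitan, and processed in Partek. The deposited values are log2 signals. The background correction, summary, normalization and version of Partek are not given in the sources used here. The table was adjusted for batch before deposit: the difference between the 2 batches was the same in naive and monocyte arrays in every transcript (largest gap 0.000133). It held 41345 transcripts, of which 2145 were blank and 6955 were 0 on every array, leaving 32245 (22765 with 1 symbol, 1679 with several, 7801 with none in the platform annotation). No 2 arrays were duplicates (smallest mean absolute difference 0.220).

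Group means and a batch term were fitted with lmFit and eBayes (limma 3.58.1, R 4.3.3), leaving 17 residual degrees of freedom, and p-values were adjusted over all transcripts for each of 18 comparisons. Arrays with the same replicate number were treated as unpaired, and whether they are pairs was not settled. The fit was tested on simulated data. The 9 genes and the 8 gene lists were chosen with earlier results of these data known. Named genes are the 9, at most 4 called genes per list and comparison, those of the largest difference, the 3 most alike by r, and marker genes that move with a result. Promoters are RefSeq windows. Alternatives were other filters, scalings, fits and transcripts, the methods' t-test, and leaving out each array. Leaving out the 3 neutrophil-rich arrays of 4 weeks was chosen after seeing the data. Replicates are arrays of separate pools or technical repeats, so p-values measure the spread between arrays, and the number of arrays limits precision.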

Additional observations from a re-analysis of the deposited data

Results flagged for a closer look

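Myof in naive microglia replicate 1 had a log2 signal of 5.24, apart from the other 4 naive arrays at 5.0 to 5.04, and its gap was 0.822 of the range of the group. Myof in Ly6Chi monocyte replicate 3 had 7.76, apart from the other 4 at 7.57 to 7.61, with a gap of 0.796 of the range. Chance flags about 1 in 20 groups, and both departures are small beside the difference of F4/80hi cells from either group.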

How the results depend on the processing

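Counts are of the 8 genes called. With each array left out in turn, the count was 3 to 4 in F4/80hi 12-week cells over naive microglia, 3 to 5 at 4 weeks, 0 to 0 in F4/80low 12-week cells, 3 to 4 at 4 weeks and 2 to 2 in DTR microglia. It was 3 to 4 for F4/80hi against F4/80low 12-week cells and 0 to 2 at 4 weeks, 4 to 6 for F4/80hi 12-week cells against monocytes and 5 to 7 at 4 weeks. It was 0 to 0 for F4/80hi cells at 12 against 4 weeks, 0 to 3 for F4/80low cells at 12 against 4 weeks, 0 to 2 for F4/80low 4-week cells against DTR microglia and 0 to 1 for the change of the difference with time. It was 4 to 5 for F4/80hi 12-week cells against RPM and 5 to 6 against intestinal macrophages, and 6, 5 and 6 for naive microglia against monocytes, RPM and intestinal macrophages. Of the other alternatives, 190 of 222 counts stayed within 1.5 times and 32 did not. With the other transcript of Cd9 and Fabp5, F4/80hi 12-week cells gave 1 against naive microglia (3) and 2 against F4/80low cells (4). For F4/80low 4-week cells against naive microglia (3), the fit of only the groups compared gave 0, averaged naive and monocyte arrays 1, the replicate block over all arrays 1 and the neutrophil-rich arrays left out 0. DTR microglia against naive microglia (2) gave 1 with only the groups compared. F4/80hi against F4/80low 12-week cells (4) gave 1 by the methods' t-test after Benjamini-Hochberg, with 5 before it. At 4 weeks (1) the filter at the 40th percentile and 1-symbol transcripts gave 2 each, no moderation, only the groups compared, 1 batch, averaged arrays and the methods' t-test gave 0 each, and the neutrophil-rich arrays left out gave 3. F4/80hi cells at 12 against 4 weeks (0) gave 1 with median-centred arrays. F4/80low cells at 12 against 4 weeks (1) gave 2 without a batch term and 0 with no moderation, only the groups compared, averaged arrays or the neutrophil-rich arrays left out. F4/80low 4-week cells against DTR microglia (0) gave 2 without a batch term and 1 with the filter, 1-symbol transcripts, only the groups compared, the replicate block over all arrays or the neutrophil-rich arrays left out. F4/80hi 12-week cells against RPM (5) gave 3 with quantile normalization, averaged arrays or the replicate block over all arrays. The causes were not tested. Same-numbered F4/80hi and F4/80low arrays correlated in their deviations at 0.282 and -0.000910 at 4 weeks and -0.0789, -0.103 and -0.0551 at 12 weeks. These deviations are from means of 2 or 3 arrays, and differently numbered arrays were not compared, so the values cannot settle whether the numbers pair the arrays. The replicate block within each time point gave 1 for the change of the difference with time (0), Myof at 2.22. Of single gene results, 3808 of 3888 kept their side of the threshold with 1 array left out and 1588 of 1668 under the other alternatives, and 0 turned their direction.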
